A study of Mus musculus with 34 samples.

Results

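The 8 complement genes described here in mouse cortical astrocytes are the 3 chains of C1q (C1qa, C1qb and C1qc), the components C2, C4b and C3, the C1 inhibitor gene Serping1 and the receptor gene C3ar1. They were chosen by gene symbol, with earlier results of these data known, and all 8 were among the 20613 genes with values. The series holds 34 libraries of polyadenylated RNA from cortical astrocytes, taken magnetically from male wild-type mice. The libraries covered 9 ages, with 4 at postnatal day 7 (P7), 4 at P14, 3 at P21, 3 at P28, 3 at P60, 5 at 3 months (3m), 5 at 6m, 3 at 12m and 4 at 18m. The antigen used for the isolation, the strain and the number of animals per library are not given in the sources used here, so p-values measure only the spread between these libraries, which may be technical. Values are TPM (each transcript's length-corrected share of its library), as computed by the authors.

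Complement is a cascade of plasma proteins that tags surfaces and recruits phagocytes. In the classical pathway, C1q binds a surface and activates the proteases C1r and C1s. These cleave C4 and C2, whose fragments form an enzyme that cleaves C3. C3b then marks the surface, and C3a signals through the receptor encoded by C3ar1, while the C1 inhibitor blocks C1r and C1s. In mouse brain, microglia are the main source of C1q. C3 is used as a marker of astrocytes in inflamed tissue, and C4b is known as a transcript that is higher in the aged brain.

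On GRCm38 (GENCODE M21), all 8 members are protein-coding genes on the minus strand. The C1q genes lie side by side on chromosome 4, C1qb at 136880129 to 136886187, C1qc at 136889804 to 136893065 and C1qa at 136895917 to 136898803, within 18675 bases. C3 (57203970 to 57228136), C4b (34728380 to 34743882) and C2 (34862604 to 34898265) are on chromosome 17, Serping1 on chromosome 2 (84765387 to 84775444) and C3ar1 on chromosome 6 (122847138 to 122856161). C4b has a near-identical neighbouring copy, C4a, for which no gene with values was found by symbol, so it was not analysed here. How the authors' counting divided reads between the copies is not given in the sources used here. C2 overlaps Gm20547 on its own strand and Zbtb12 on the opposite strand, so its level carries the same uncertainty.

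RefSeq promoter windows, from 250 bases before to 50 bases after the transcription start (GRCm38.p6), were found for C1qb, C1qc, C3ar1 and C3. Sequence upstream of the start is printed for C1qb and C1qc, whose transcripts moved together across libraries, and for C3, whose transcript differed most between ages. The C1qc stretch holds only the 99 bases outside the GENCODE gene record. Capitals mark GAGGAA or its reverse complement TTCCTC, the core bound by PU.1, in the C1q stretches, and TTNNGNAA, a loose form of the C/EBP site, in C3.
C1qb (chr4:136886201-136886450, minus strand): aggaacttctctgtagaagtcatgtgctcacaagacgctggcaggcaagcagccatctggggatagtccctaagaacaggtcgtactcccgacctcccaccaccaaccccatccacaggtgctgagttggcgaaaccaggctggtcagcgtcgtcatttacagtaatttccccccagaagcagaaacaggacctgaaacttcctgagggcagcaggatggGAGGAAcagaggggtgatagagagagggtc
C1qc (chr4:136893066-136893164, minus strand): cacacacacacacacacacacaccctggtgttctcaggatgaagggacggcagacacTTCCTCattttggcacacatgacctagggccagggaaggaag
C3 (chr17:57228137-57228386, minus strand): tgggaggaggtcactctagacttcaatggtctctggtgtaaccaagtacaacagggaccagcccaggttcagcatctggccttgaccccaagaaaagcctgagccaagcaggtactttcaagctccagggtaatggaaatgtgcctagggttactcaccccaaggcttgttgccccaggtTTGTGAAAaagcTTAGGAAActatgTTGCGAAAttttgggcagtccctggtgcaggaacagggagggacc
GAGGAA began 30 bases before the C1qb start, and TTCCTC began 193 bases before the RefSeq start of C1qc. All motifs were searched only in the 250 bases before each start, and not in the 50 bases after it. Below, a window means this upstream part. The core was in 23.3% of the 32851 windows, on either strand, and not in those of C3ar1 and C3. C3 held 3 matches to TTNNGNAA, beginning 70, 58 and 45 bases before the start, and 2.61% of all windows held at least 3 while 36.8% held any. C1qc held 1 such match outside the printed stretch. The other motifs searched on both strands were TTCNNNGAA (STAT, in 7.02% of windows), the interferon response element (GAAA, any 2 bases, GAAA; 2.98%), the NF-kB site (GGG, any 5 bases, CC; 45.8%, counted with overlaps between its strands) and TGANTCA (AP-1, 6.75%). The NF-kB pattern matched in each of the 4 windows, TGANTCA only in that of C3ar1, and the STAT and interferon patterns in none. A match is a description of letters and not of binding.

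The labelled cell type was checked against marker lists. All 12 astrocyte markers, led by Aldoc (mean 9050 TPM) and Slc1a3 (3031 TPM), were above 0 in every library and summed to between 12116 and 31932 TPM. RNA of other brain cells was also present. All 14 microglial markers were above 0 in every library, at a sum of 111 to 238 TPM, as were all 7 fibroblast and meningeal markers. Of the 11 markers of border and blood-borne myeloid cells, 6 were above 0 in every library. Ccr2, S100a8, S100a9, Cd163 and Ms4a7 were at 0 in some. Abundant markers of the other lists included Tyrobp (microglia, mean of 26.0 TPM), Pf4 and Cbr2 (myeloid, 17.7 and 3.96 TPM), Dcn and Slc6a13 (fibroblast, 149 and 92.2 TPM), Ly6c1 and Cldn5 (endothelium, 850 and 282 TPM), Myl9 and Rgs5 (mural cells, 466 and 125 TPM), Ccdc153 and Tmem212 (ependyma, 232 and 179 TPM), Snap25 and Slc17a7 (neurons, 60.4 and 32.9 TPM) and Cnp (oligodendrocytes, 249 TPM). The libraries also fell into 3 separate ranges in the number of genes listed at 0. It was 4109 to 4819 in the 14 libraries of P7, P14, 18m and 2 of the 12m libraries, 2854 to 3523 in the 9 of P21, P28 and P60, and 1155 to 1704 in the 11 of 3m, 6m and 12m replicate 3. The labels name no batch that matches this. Across these ranges, age and range cannot be told apart for P60 vs P7. In 18m vs 3m they are separated only by the 12m libraries. The comparison 18m vs P7 lies within a single range. Since Exosc6, a gene most cells use, was at 0 in 17 libraries, a 0 is given below as a listed value and not as absence.

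**Figure D1:**
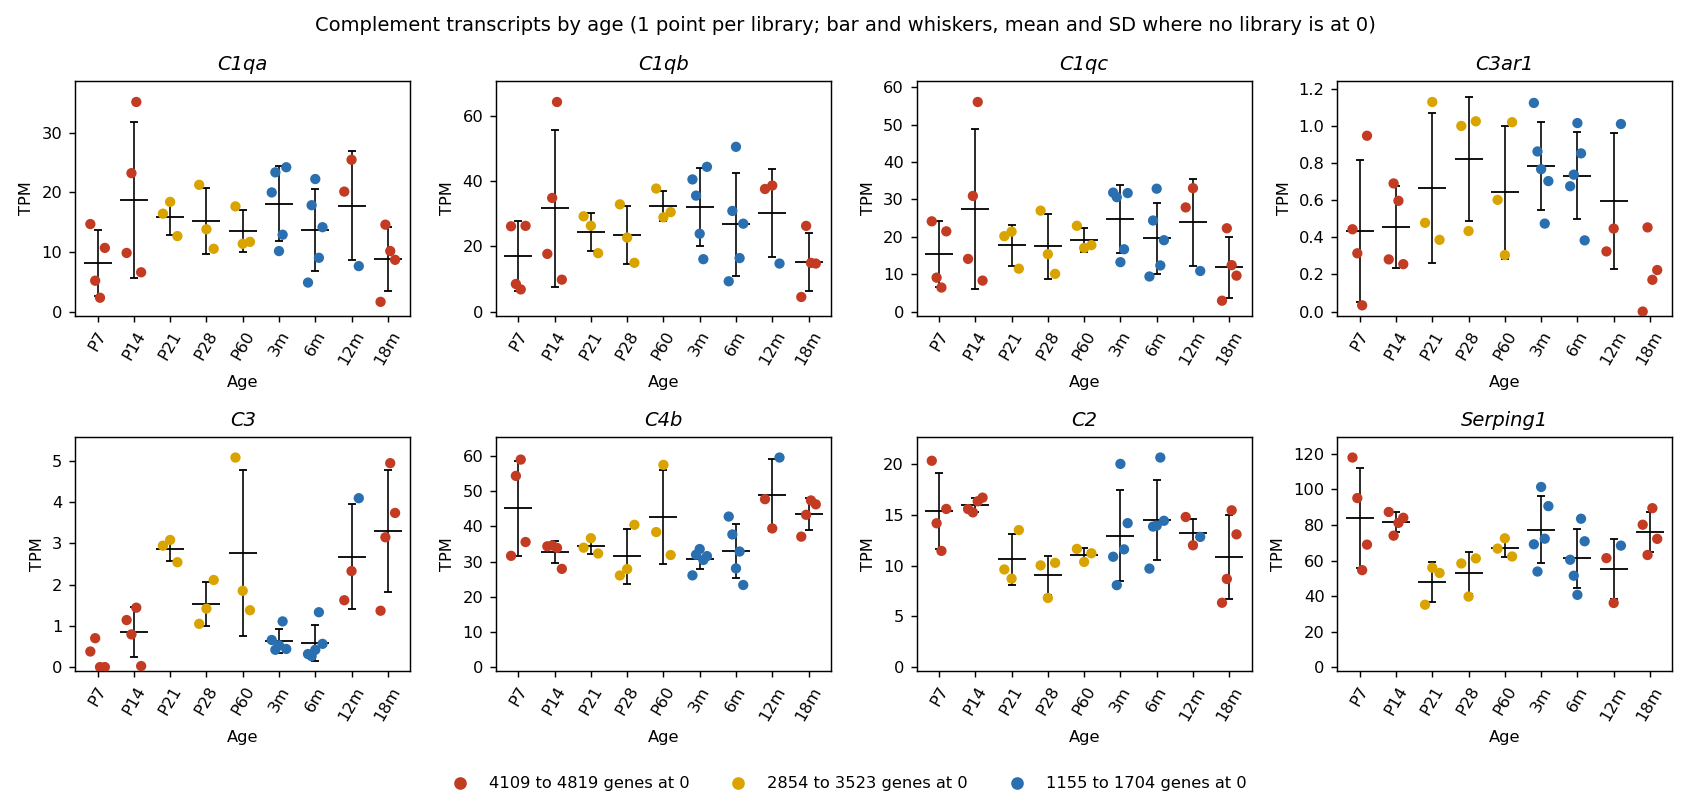
TPM of each of the 8 genes (y axis, own scale per gene) in each of 34 libraries against age (x axis), coloured by the number of genes listed at 0 in the library, with the mean and SD of each age where no library is at 0. C3 was lowest at P7, at 0 to 0.701 TPM, and reached 1.37 to 4.95 TPM at 18m, while the C1q panels share their high and low libraries.

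Differences between ages were tested with limma on log2(TPM + 1) in a single fit to 34 libraries and 14590 genes that reached 1 TPM in 3 or more libraries. A gene was called, and is said to have risen or fallen, at a Benjamini-Hochberg adjusted p under 0.05 over all genes tested. All 8 members passed the filter on low values, C3 with at least 1 TPM in 20 libraries and C3ar1 in 6. In the F test over the 9 ages, 3 of 8 members were called, C3 (adjusted p = 3.74e-05), C4b (0.0220) and Serping1 (0.0327), against 63.6% of all genes tested. Differences between age means made up 73.9% of the variance of C3 on the log2 scale, 47.3% of C4b, 45.0% of Serping1, 40.2% of C2, 38.5% of C3ar1 and 22.2% to 29.3% of the C1q chains. The median over all genes tested was 50.8%, so C3 alone among the members lay above it. With few libraries per age, such a share is above 0 even without an effect of age. It also includes differences between the ranges of genes at 0. The C1q chains were not called in the F test (adjusted p = 0.271, 0.359 and 0.506). When the 9 ages of any member were ordered by mean, every pair of neighbours in the order had overlapping library values.

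C3, the component on which all complement pathways converge, was the member with the largest share of its variance between ages. Its level was listed as 0.378, 0.701, 0 and 0 TPM in the P7 libraries and 1.14, 0.793, 1.44 and 0.0253 TPM at P14. The P21 libraries had 2.95, 3.08 and 2.54 TPM, the P28 libraries 1.05, 1.42 and 2.11 TPM and the P60 libraries 5.08, 1.85 and 1.38 TPM. At 3m the values were 0.657, 0.420, 0.532, 1.11 and 0.440 TPM, and at 6m 0.316, 0.265, 0.418, 1.33 and 0.563 TPM. All libraries of P21 and P60 were thus above every library of 3m and 6m. Those of P28 overlapped with 3m, 6m and P14. The 12m libraries had 1.62, 2.33 and 4.10 TPM and the 18m libraries 1.37, 3.15, 4.95 and 3.74 TPM. All libraries of 12m and 18m were above the highest library of 3m and 6m.

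The test gave C3 as higher at P60 than at P7 by 1.48 ± 0.32 (log2 of TPM + 1, SE; adjusted p = 0.000584, limma). The P60 and P7 libraries did not overlap. C3 averaged 3.30 ± 1.49 TPM at 18m (SD, n = 4) and 0.631 ± 0.283 TPM at 3m (SD, n = 5), a ratio of 5.23 and a log2 difference of 1.34 ± 0.28 (limma adjusted p = 0.000651). These libraries did not overlap either. Between 18m and P7, both in the range with the most genes at 0, the difference was 1.72 ± 0.29 (limma adjusted p = 0.000102), with all 4 libraries of 18m above all 4 of P7. Under every alternative that was run and kept C3 among the genes tested, C3 remained called in these 3 comparisons. Its level is too low for a filter of 5 TPM. A term for the range of genes at 0 could not be fitted for P60 vs P7.

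Between neighbouring ages, C3 rose in P21 vs P14, with a log2 difference of 1.13 ± 0.32 (limma adjusted p = 0.0191), and was lower at 3m than at P60 by a log2 difference of -1.10 ± 0.30 (limma adjusted p = 0.0194). The 3m vs P60 call rested on P60 replicate 1, without which the difference was -0.69 (adjusted p = 0.211), and was lost with a pseudocount of 0.1 (adjusted p = 0.0799). The P21 vs P14 call was lost without P14 replicate 4 (adjusted p = 0.0798), P21 replicate 1 (0.0552) or P21 replicate 2 (0.0838). Both of these steps cross ranges of genes at 0. For 12m vs 6m the log2 difference was 1.2 ± 0.30 (adjusted p = 0.157), in a comparison in which 0.0548% of all genes were called. Within the range with the fewest genes at 0, the lone 12m library had 4.10 TPM, 3.08 times the highest of the 10 libraries of 3m and 6m. Within a range, C3 did not pass the test for P14 vs P7 (0.51 ± 0.29, adjusted p = 0.240), P60 vs P21 (-0.16 ± 0.34, 0.873) or 6m vs 3m (-0.07 ± 0.26, 0.907).

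With the mean level of the microglial markers, C3 had r = 0.18 over 34 libraries (rho = 0.16, adjusted permutation p = 0.444 for r). In 18m vs 3m none of the 14 microglial, 9 tested border myeloid or 7 fibroblast markers rose, while 6 microglial and 3 fibroblast markers fell. Of all genes tested, 4.16% rose and 33.4% fell in that comparison. In P60 vs P7, 9 microglial markers rose and 2 fell, while 3 myeloid and 5 fibroblast markers fell and none of these rose. In 18m vs P7, 1 microglial marker (P2ry12) rose and 2 fell, 1 myeloid marker (Ly6c2) rose and none fell, and 4 fibroblast markers fell. Of all genes tested, 19.5% rose and 33.3% fell in P60 vs P7, and 4.67% rose and 24.9% fell in 18m vs P7. The myeloid markers summed to 9.90 to 18.4 TPM at P60, 13.1 to 64.1 TPM at 18m, 22.3 to 42.2 TPM at 3m and 24.97 to 78.3 TPM at P7. With the mean of the microglial markers as a covariate, C3 was still called in each of the 3 comparisons. Some markers of other cells moved with C3 too. In P60 vs P7, 5 of 7 oligodendrocyte markers rose and 1 fell (median log2 difference 2.65), and 6 of 8 ependymal and choroid plexus markers (1.79) and 6 of 9 neuronal markers (1.58) rose. There, 4 of 7 endothelial markers fell and none rose, and of 6 mural cell markers 1 rose and 1 fell. In 18m vs P7, 4 of the ependymal markers (median 0.89) and 1 each of the oligodendrocyte, neuronal and endothelial markers rose, while 1 endothelial marker fell. In 18m vs 3m no marker of oligodendrocytes, ependyma, neurons, endothelium or mural cells rose, while 5 neuronal markers and 1 ependymal marker fell. The oligodendrocyte markers summed to 553 to 1502 TPM at P60, 190 to 866 TPM at 18m, 315 to 645 TPM at 3m and 228 to 371 TPM at P7, with Mog and Mobp at 0 in some libraries. The ependymal markers, all above 0 in every library, summed to 914 to 2083 TPM at P60, 495 to 996 TPM at 18m, 581 to 2125 TPM at 3m and 252 to 394 TPM at P7. The part of these cells in the C3 differences was not tested.

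C4b, the C4 gene whose product is cleaved by C1s, was among the higher members, at 23.3 to 59.6 TPM over all libraries. Its 18m libraries had 37.1, 43.3, 47.4 and 46.3 TPM, against 26.1, 31.9, 33.5, 30.4 and 31.5 TPM at 3m. All 18m libraries were above all 3m libraries, by a ratio of means of 1.42 and a log2 difference of 0.49 ± 0.18 (limma adjusted p = 0.0334). This call was close to the threshold. It was lost without 3m replicate 1 (adjusted p = 0.0782) or replicate 4 (0.0519), without 18m replicate 2 (0.0585), 3 (0.0750) or 4 (0.0705), with the microglial covariate (0.35, adjusted p = 0.181) and when the range of genes at 0 was a term (0.94, adjusted p = 0.162).

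C4b was also high in young libraries. The P7 libraries had 31.6, 54.3, 59.0 and 35.5 TPM, and 18m differed from P7 by -0.01 (log2, 95% interval -0.40 to 0.38, limma adjusted p = 0.981). P60 differed from P7 by -0.08 (interval -0.50 to 0.34, limma adjusted p = 0.766), with 38.4, 57.5 and 31.8 TPM at P60. The 12m libraries, at 47.7, 39.4 and 59.6 TPM, had the highest mean and the 3m libraries the lowest, at a ratio of 1.59. P14 (27.9 to 34.6 TPM), P21 (32.3 to 36.6 TPM), P28 (26.0 to 40.4 TPM) and 6m (23.3 to 42.8 TPM) lay between these and overlapped with each other.

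**Figure D2:**
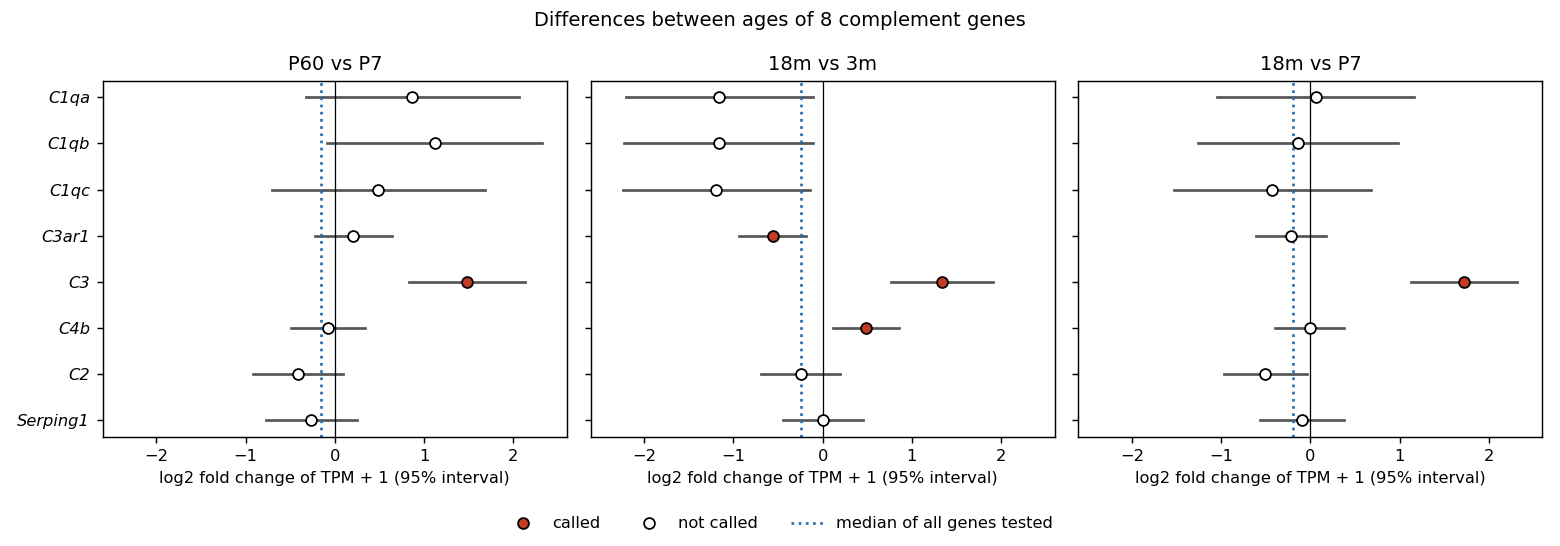
Log2 fold change of TPM + 1 (x axis) of each gene (y axis) in P60 vs P7, 18m vs 3m and 18m vs P7, as a point with its 95% interval from limma, filled where called, with a line at the median of all genes tested. C3 is called in each panel, at 1.48, 1.34 and 1.72, and C4b (0.49) and C3ar1 (-0.56) in 18m vs 3m alone.

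Of the 8 members, 1 rose and none fell in P60 vs P7, where 19.5% of all genes tested rose and 33.3% fell (52.8% called). In 18m vs 3m, 2 rose and 1 fell, where 4.16% of genes rose and 33.4% fell (37.5% called). In 18m vs P7, 1 rose and none fell, where 4.67% rose and 24.9% fell (29.6% called). The median log2 difference of the members was 0.35, -0.40 and -0.11 in these comparisons, beside -0.15, -0.24 and -0.20 over all genes tested. Rescaling the TPM by the median of ratios moved these medians of all genes to 0.01, -0.02 and 0.03 and changed no count of members called in them. The comparisons share libraries of P7 and of 18m, so their values are not independent. Among the steps, 2 of 8 members were called in P21 vs P14 (13.2% of all genes) and 1 in 3m vs P60 (10.2%). None was called in P14 vs P7 (11.8%), P28 vs P21 (0.0206%), P60 vs P28 (1.12%), P60 vs P21 (1.86%), 6m vs 3m (9.32%), 12m vs 6m (0.0548%) or 18m vs 12m (20.2%). In these 7 comparisons an unadjusted limma p under 0.05 was seen for C4b in P14 vs P7 and for C3 and C4b in 12m vs 6m. The step counts depended on the scaling: after rescaling, C4b was also called lower in 3m vs P60 (log2 difference -0.58, limma adjusted p = 0.0423) and Serping1 higher in 18m vs 12m (0.74, limma adjusted p = 0.0439).

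C2, the protease that forms the C3-cleaving enzyme with C4b, passed the test in no comparison. Its P60 libraries had 11.7, 10.4 and 11.2 TPM, against 20.3, 14.2, 11.5 and 15.6 TPM at P7, where 1 library lay within the P60 range (log2 difference -0.41 ± 0.25, limma adjusted p = 0.157). At 18m it had 6.34, 8.69, 15.5 and 13.1 TPM, against 10.9, 8.08, 20.0, 11.6 and 14.2 TPM at 3m, and the groups overlapped (-0.24, 95% interval -0.69 to 0.20, limma adjusted p = 0.390). The 18m vs P7 difference was -0.51 ± 0.23 (limma adjusted p = 0.0907) and, among the alternatives run, passed the threshold only without 18m replicate 3 (-0.68, adjusted p = 0.0285). Over the ages, means lay between 9.04 ± 1.93 TPM at P28 (SD, n = 3) and 16.0 ± 0.670 TPM at P14 (SD, n = 4).

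Serping1, which encodes the C1 inhibitor, was the most abundant member, at 35.1 to 118 TPM. It had 35.1, 56.0 and 53.0 TPM at P21, against 87.3, 74.0, 81.2 and 84.1 TPM at P14, with no overlap. It fell in P21 vs P14 by a log2 difference of -0.78 ± 0.25 (limma adjusted p = 0.0383). That call was lost whichever of the 7 libraries was left out (adjusted p up to 0.182), and with the microglial covariate. Between the ends of the series its values overlapped. The 18m libraries had 80.2, 63.1, 89.5 and 72.2 TPM and the 3m libraries 69.1, 53.8, 101, 72.3 and 90.6 TPM (log2 difference -0.00043, 95% interval -0.45 to 0.45, limma adjusted p = 0.999). The P60 libraries had 66.7, 72.5 and 62.3 TPM and the P7 libraries 118, 95.2, 54.6 and 69.0 TPM (-0.26, interval -0.77 to 0.25, limma adjusted p = 0.380). None of the 7 fibroblast and meningeal markers was called in P21 vs P14 (limma, median log2 difference -0.47), where 13.2% of all genes tested were called. Their mean level was 4.51 ± 0.18 (log2 of TPM + 1, SD, n = 3) at P21 and 4.79 ± 0.26 (n = 4) at P14, with sums of 196 to 251 TPM at P21 and 276 to 408 TPM at P14. Of 6 mural cell markers 1, Myl9, fell (list median -0.56), and they summed to 535 to 571 TPM at P21 and 504 to 1429 TPM at P14. The part of these lists in the Serping1 difference was not tested.

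The C1q chains, which assemble into the recognition molecule of the classical pathway, varied more between libraries of an age than between ages. Their summed level was 1.37-fold to 7.02-fold apart within an age and 17.3-fold apart over all libraries, at 9.0 TPM in 18m replicate 1 and 156 TPM in P14 replicate 3. C1qb shows the spread. Its P7 libraries had 26.2, 8.47, 6.80 and 26.3 TPM, the P14 libraries 17.7, 34.9, 64.4 and 9.80 TPM and the P60 libraries 37.8, 29.0 and 30.6 TPM. The 3m libraries had 40.6, 35.6, 23.9, 16.1 and 44.5 TPM and the 18m libraries 4.47, 26.3, 14.9 and 14.8 TPM. The P14 libraries alone spanned nearly the range of the whole series. The within-age SD was 0.79 to 0.80 for the 3 chains (log2 of TPM + 1), against 0.43 for C3 and 0.28 for C4b.

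None of the chains was called in any comparison. At P60 compared with P7 the log2 differences were 0.87 ± 0.58 for C1qa, 1.12 ± 0.59 for C1qb and 0.49 ± 0.58 for C1qc (limma adjusted p = 0.210, 0.110 and 0.491). For 18m vs 3m they were -1.16 ± 0.51, -1.16 ± 0.52 and -1.19 ± 0.51 (limma adjusted p = 0.0747, 0.0764 and 0.0664). C1qa averaged 8.75 ± 5.37 TPM at 18m (SD, n = 4) and 18.1 ± 6.30 TPM at 3m (SD, n = 5). C1qc averaged 11.8 ± 8.05 TPM at 18m and 24.8 ± 9.10 TPM at 3m. All 3 chains passed the threshold when 18m replicate 2 was left out (adjusted p = 0.0399, 0.0389 and 0.0262), and C1qc also without 3m replicate 3 (0.0456). In 18m vs P7 the 95% intervals were wide, -1.05 to 1.17 for C1qa, -1.26 to 0.98 for C1qb and -1.53 to 0.68 for C1qc (limma adjusted p = 0.952, 0.875 and 0.567).

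The chains moved together, with r of at least 0.949 between any pair over 34 libraries, which share the same scaling. C1qb was the highest chain in 31 of 34 libraries and C1qa the lowest in 32. Of the summed level, C1qb made up 43.2% ± 3.8, C1qc 33.1% ± 3.4 and C1qa 23.7% ± 3.4 (SD, n = 34 libraries). TPM are corrected for length, so these shares compare transcripts, not protein.

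They also moved with the microglial markers, none of which is a member. Over 34 libraries the correlation with the mean log2 level of the 14 markers was r = 0.88 for C1qa (rho = 0.89), 0.92 for C1qb (rho = 0.93) and 0.84 for C1qc (rho = 0.85), each with a permutation p of 1e-05, the smallest possible with 100000 permutations (adjusted p = 6.4e-05 for r over 32 relations). Without the 2 libraries farthest from the median it was 0.87, 0.90 and 0.80. Within the ranges of genes at 0, r was 0.92, 0.95 and 0.93 in the 11 libraries with the fewest zeros, 0.70, 0.89 and 0.87 in the middle 9 and 0.93, 0.95 and 0.92 in the 14 with the most. Only C1qa in the middle range missed the threshold (adjusted exact permutation p = 0.0762). As deviations from the age means, which remove age, r was 0.90, 0.95 and 0.93. For the other members over 34 libraries r was 0.56 for C3ar1 (rho = 0.53, adjusted permutation p = 0.00192 for r), -0.10 for C2 (rho = -0.15), -0.35 for C4b (rho = -0.35) and -0.38 for Serping1 (rho = -0.33), the last 3 with adjusted permutation p of 0.648, 0.088 and 0.061 for r. Within the ranges, from fewest to most zeros, r was 0.39, 0.06 and 0.63 for C3ar1, of which only the last passed the threshold (adjusted permutation p = 0.0382), and the r of C3ar1 over all libraries was 0.42 without the 2 farthest. C2, C3, C4b and Serping1 passed it within no range. In bulk RNA, fewer cells of a type and less RNA per cell cannot be told apart.

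**Figure D3:**
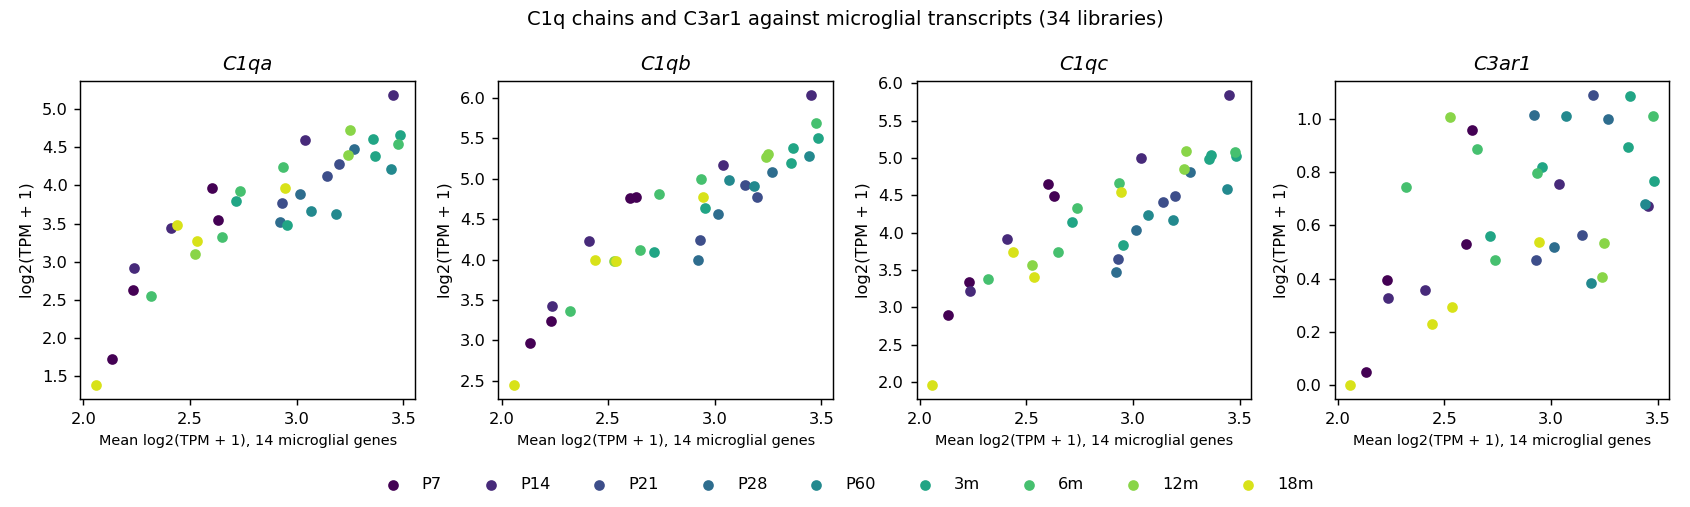
Level of C1qa, C1qb, C1qc and C3ar1 (y axis, log2 of TPM + 1) against the mean level of 14 microglial markers (x axis, same scale) in 34 libraries, coloured by age. The C1q chains rise along the x axis (r = 0.88, 0.92 and 0.84) and C3ar1 less closely (r = 0.56).

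The microglial markers themselves differed between the ages. Their mean was 3.23 ± 0.19 at P60 (log2 of TPM + 1, SD, n = 3) and 2.40 ± 0.25 at P7 (n = 4), and 2.49 ± 0.36 at 18m (n = 4) and 3.18 ± 0.33 at 3m (n = 5). They summed to 188 to 238 TPM at P60, 111 to 161 TPM at P7, 120 to 182 TPM at 18m and 138 to 221 TPM at 3m. Tyrobp had 20.6 ± 6.72 TPM at 18m and 32.1 ± 12.9 TPM at 3m. With the microglial mean as a covariate, the P60 vs P7 differences of the C1q chains turned negative and were called, at -0.80 for C1qa (limma adjusted p = 0.0319), -0.64 for C1qb (0.0246) and -1.22 for C1qc (0.000888). The 18m vs 3m differences turned positive and were not called, at 0.21, 0.28 and 0.21. In 18m vs P7, where the marker means were 2.49 and 2.40, C1qc was called at -0.62 (adjusted p = 0.0214) and the other chains were not. The microglial markers' part in the C1q levels was not tested beyond this fit.

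C3ar1, the C3a receptor, was listed at 0 to 1.13 TPM and reached 1 TPM in 6 of 34 libraries. It had 0, 0.453, 0.171 and 0.223 TPM at 18m, against 1.12, 0.862, 0.766, 0.473 and 0.702 TPM at 3m, with no overlap. It fell by a log2 difference of -0.56 ± 0.18 (limma adjusted p = 0.0179). The call rested on 18m replicate 1, the library at 0 and the lowest for all 3 C1q chains, without which adjusted p was 0.0818. It was also lost with the microglial covariate (-0.36, adjusted p = 0.164) and when a term was added for the range of genes at 0 (-0.02, adjusted p = 0.982). P60 libraries had 0.601, 0.304 and 1.02 TPM and P7 libraries 0.443, 0.313, 0.0334 and 0.946 TPM, which overlapped (0.21, 95% interval -0.22 to 0.64, limma adjusted p = 0.408).

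Other genes of the pathway were taken from 5 lists of 56 genes, of which 37 were tested. Their values are means ± SD over libraries (n = 3 at P60, 5 at 3m and 4 at 18m and P7). In P60 vs P7, 12 rose and 12 fell, beside 19.5% and 33.3% of all genes tested, and 14 rose and 9 fell of 36 after rescaling. Of these 24 calls, 11 held under every alternative that was run and kept the gene. A term for the range of genes at 0 could not be fitted for P60 vs P7, so these calls did not face it. In 18m vs 3m none rose and 9 fell (4.16% and 33.4% of all genes), and in 18m vs P7 2 rose and 8 fell (4.67% and 24.9%). At an unadjusted p under 0.05, 3 were higher and 11 lower in 18m vs 3m (limma). After rescaling these were 5 higher and 6 lower of 36 in 18m vs 3m, and 3 higher and 4 lower in 18m vs P7, so the split of directions depended on the scaling. None of the 9 calls in 18m vs 3m, all but Itgam being lost with a term for the range of genes at 0, and 4 of the 10 in 18m vs P7 held under every alternative.

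Among the C1 proteases and pattern-recognition proteins, 2 of 8 tested genes rose and 2 fell in P60 vs P7. C1ra, a C1r protease gene, had 4.17 ± 0.845 TPM at P60 (SD, n = 3) and 2.31 ± 0.486 TPM at P7 (SD, n = 4), with a log2 difference of 0.64 ± 0.21 (limma adjusted p = 0.0112; 0.0527 without P60 replicate 2). C1rl, a C1r-like gene, was also higher (0.72 ± 0.25, limma adjusted p = 0.0181; lost without P7 replicate 4 or P60 replicate 3, at up to 0.0673). Fcna, a ficolin of the lectin pathway, was lower at 0.129 ± 0.0611 TPM at P60 and 1.35 ± 0.899 TPM at P7 (-0.98 ± 0.32, limma adjusted p = 0.0129; 0.0559 without P7 replicate 1). Colec12, a scavenger collectin, was lower by a log2 difference of -0.65 ± 0.25 (limma adjusted p = 0.0334), which was lost after rescaling, with the microglial covariate and without P7 replicate 1 or P60 replicate 1 (adjusted p up to 0.237). None of the 8 was called in 18m vs 3m (limma), where 2 had an unadjusted p under 0.05. In 18m vs P7 Fcna fell (-0.83 ± 0.30, limma adjusted p = 0.0348), a call lost after rescaling, with a pseudocount of 0.1 and without P7 replicate 1 or 4 or 18m replicate 1, 2 or 3 (adjusted p up to 0.132), with 0 to 0.468 TPM at 18m and 0.530 to 2.40 TPM at P7.

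Of 4 tested genes of the alternative and terminal pathways, Hc, which encodes C5, rose in P60 vs P7, at 6.51 ± 3.18 TPM at P60 and 2.54 ± 0.340 TPM at P7 (1.01 ± 0.35, limma adjusted p = 0.0178; 0.144 without P60 replicate 1). Cfp, which encodes properdin, the stabiliser of the alternative-pathway enzyme, fell, at 2.22 ± 0.439 TPM at P60 and 5.03 ± 1.07 TPM at P7 (-0.90 ± 0.25, limma adjusted p = 0.00496). None of the 4 was called by limma in 18m vs 3m, where 1 had an unadjusted p under 0.05, or in 18m vs P7, where none did.

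Among 5 tested receptor genes, Cr2, which encodes a receptor for C3 fragments, had 1.38 ± 0.186 TPM at P60 and 0.288 ± 0.296 TPM at P7 (0.91 ± 0.23, limma adjusted p = 0.00204). At 18m it was 0.277 ± 0.189 TPM, against 1.25 ± 0.215 TPM at 3m (-0.82 ± 0.20, limma adjusted p = 0.00250; 0.30 with a term for the range of genes at 0). Itgam, the alpha chain of complement receptor 3, had 0.921 ± 0.305 TPM at P60 and 0.109 ± 0.0466 TPM at P7 (0.78 ± 0.23, limma adjusted p = 0.00711), and was lower at 18m than at 3m (-0.58 ± 0.21, limma adjusted p = 0.0262). Both Itgam calls were lost with the microglial covariate, and the second also without 3m replicate 1 or 5 or 18m replicate 1, 3 or 4 (adjusted p up to 0.0707). Cd93, a gene of endothelium and myeloid cells once proposed as a C1q receptor, had 1.26 ± 0.373 TPM at P60 and 5.66 ± 1.04 TPM at P7 (-1.56 ± 0.33, limma adjusted p = 0.000547). Its 18m level of 2.54 ± 1.32 TPM was lower than the 5.03 ± 1.19 TPM at 3m (-0.82 ± 0.29, limma adjusted p = 0.0270) and than P7 (-0.97 ± 0.31, limma adjusted p = 0.0182), calls lost after rescaling. The first was also lost without 3m replicate 1 or 4 or 18m replicate 1, 3 or 4 (adjusted p up to 0.102), and the second without P7 replicate 2 or 18m replicate 4 (up to 0.0658). The 18m vs 3m call of Cd93 was lost too with a term for the range of genes at 0 (0.13).

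Of 13 inhibitor genes tested, 6 rose and 4 fell in P60 vs P7, where 52.8% of all genes were called, and 2 fell in 18m vs 3m. Clu, which encodes clusterin, an inhibitor of the terminal pathway, was the most abundant, at 11923 ± 707 TPM at P60, 10337 ± 752 TPM at 18m and 4689 ± 540 TPM at P7. It rose by 1.35 ± 0.33 in P60 vs P7 (limma adjusted p = 0.00191) and by 1.14 ± 0.31 in 18m vs P7 (limma adjusted p = 0.00745), under every alternative run for each. Cd59b, an inhibitor of the membrane attack complex, had 21.8 ± 6.76 TPM at P60 and 9.44 ± 0.468 TPM at P7 (1.09 ± 0.31, limma adjusted p = 0.00553), and Susd4, an inhibitor of the C3-cleaving enzyme, had 10.2 ± 1.64 TPM at P60 and 4.51 ± 1.56 TPM at P7 (1.06 ± 0.27, limma adjusted p = 0.00248; lost with the microglial covariate). Cr1l, the rodent inhibitor Crry, fell to 73.3 ± 4.35 TPM at P60, against 110 ± 2.11 TPM at P7 (-0.57 ± 0.15, limma adjusted p = 0.00307). Csmd1, a membrane inhibitor gene of neural tissue, had 3.62 ± 0.928 TPM at P60, 3.67 ± 1.47 TPM at 18m and 7.98 ± 0.921 TPM at P7, and fell in both comparisons with P7 (-0.97 ± 0.26 and -0.99 ± 0.24, limma adjusted p = 0.00318 and 0.00307). Its relative Csmd2 fell as well (-0.71 ± 0.19 in P60 vs P7 and -0.75 ± 0.18 in 18m vs P7, limma adjusted p = 0.00337 and 0.00232). Both were also lower at 18m than at 3m (-0.77 ± 0.23 for Csmd1 and -0.55 ± 0.17 for Csmd2, limma adjusted p = 0.00968 and 0.0105), the first not without 18m replicate 1 (adjusted p = 0.0727). Both of these calls were lost with a term for the range of genes at 0, at 0.0080 and 0.29. Cr1l was lower at 18m than at P7 (-0.41 ± 0.14, limma adjusted p = 0.0301), a call lost after rescaling and without any library of these ages except 18m replicate 2 (adjusted p up to 0.0760). Cd46 was higher in 18m vs P7 by 0.40 ± 0.16 (limma adjusted p = 0.0486), a call lost whichever library was left out (adjusted p up to 0.110), without the filter on low values, with the microglial covariate and with the range term.

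The last list held genes for neuronal or secreted proteins that bind C1q or C3 or limit complement at synapses. In P60 vs P7, 1 of 7 rose and 4 fell. Ptx3, a pentraxin that binds C1q, had 5.19 ± 0.481 TPM at P60 and 25.5 ± 1.56 TPM at P7 (-2.10 ± 0.49, limma adjusted p = 0.00126). Sez6l (-1.36 ± 0.34, limma adjusted p = 0.00194) and Nptx2, a neuronal pentraxin (-0.73 ± 0.19, limma adjusted p = 0.00245), fell too. Nptx2 was also lower at 18m, at 2.10 ± 0.400 TPM, than at 3m (-0.57 ± 0.17, limma adjusted p = 0.00822) and P7 (-0.57 ± 0.17, limma adjusted p = 0.0153; lost after rescaling and, at up to 0.0608, without P7 replicate 3 or 18m replicate 1), and Ptx3 lower at 18m than at P7 (-1.57 ± 0.45, limma adjusted p = 0.0114; 0.0529 without 18m replicate 2). Nptx1 was higher at P60 than at P7 (0.77 ± 0.29, limma adjusted p = 0.0264; lost without replicate 1 or 3 of either age, at up to 0.128, with a pseudocount of 0.1 and with the microglial covariate, where it was 0.18) and lower at 18m than at 3m (-0.96 ± 0.25, limma adjusted p = 0.00449; lost with the microglial covariate). Srpx2, a secreted C1q-binding protein, was lower at 18m than at P7, with 1.49 ± 0.377 TPM at 18m and 3.21 ± 0.794 TPM at P7 (-0.75 ± 0.18, limma adjusted p = 0.00310), and lower than at 3m (-0.55 ± 0.17, limma adjusted p = 0.0140; lost after rescaling, and 0.0561 without 18m replicate 2). The 18m vs 3m calls of Nptx1, Nptx2 and Srpx2 were each lost with a term for the range of genes at 0. In P60 vs P7, 6 of 9 neuronal markers rose, beside 19.5% of all genes tested, while 1 gene of this list rose and 4 fell. In 18m vs 3m, 5 of 9 neuronal markers and 3 of the 7 genes of this list fell, beside 33.4% of all genes tested. The neuronal markers summed to 233 to 452 TPM at P60, 40.8 to 66.8 TPM at P7, 65.6 to 139 TPM at 18m and 116 to 425 TPM at 3m. Their part in the results was not tested.

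**Figure D4:**
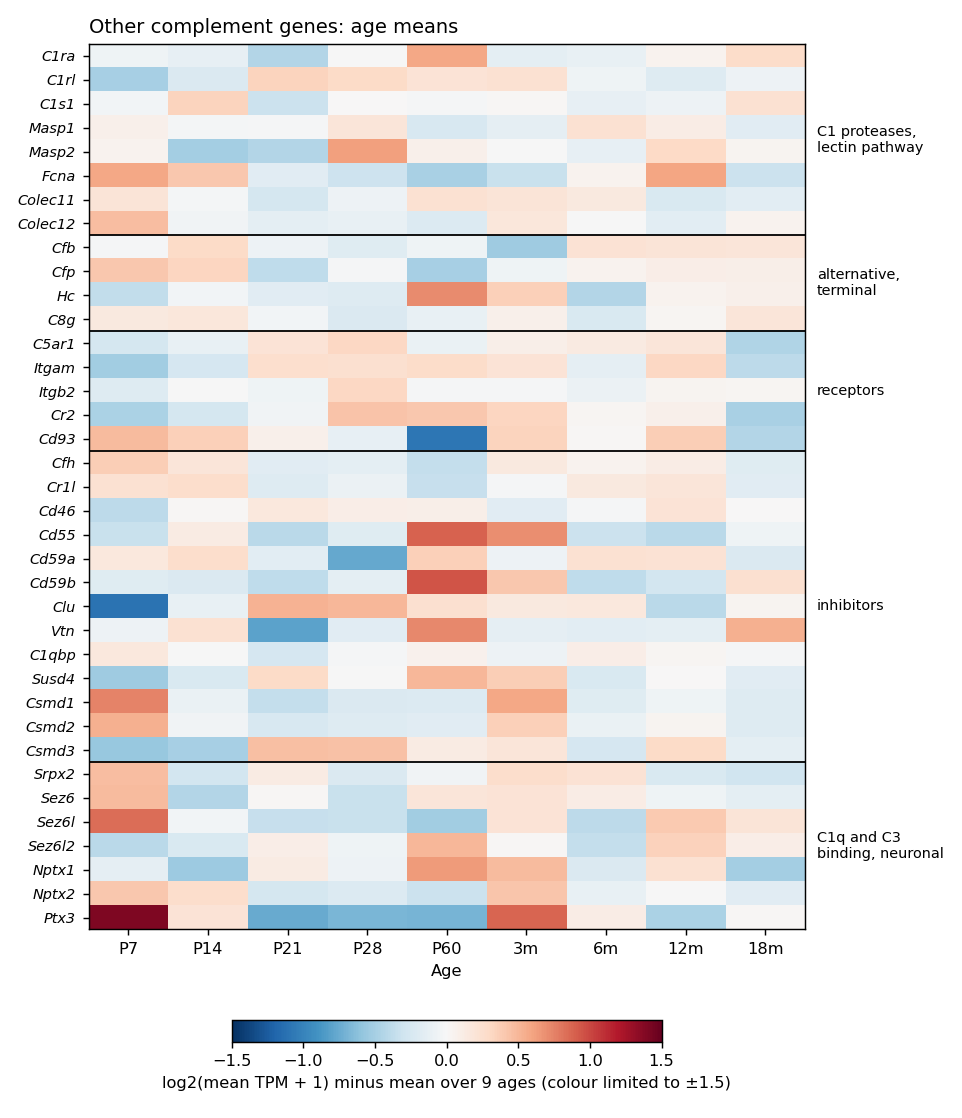
Mean level per age (columns) of the other complement genes tested (rows, grouped by list), as log2 of mean TPM + 1 minus the gene's mean over the 9 ages (colour). Clu is low at P7, at 4689 TPM, and Ptx3 high at P7, at 25.5 TPM.

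The genes most like each member, by r of log2(TPM + 1) over 34 libraries, were listed as a description. For C3 they were Neu4, a sialidase gene (r = 0.80, and 0.91 over the 9 age means), Adssl1 (0.78 and 0.85) and Hp, the haptoglobin gene (0.76 and 0.77). For C4b they were less close, with Ripk4 (0.69 and 0.97), Col16a1 (0.66 and 0.67) and Pcdhga7 (0.63 and 0.81). C2 was most like Pus3 (0.80 and 0.82), Alcam (0.74 and 0.78) and Omd (0.73 and 0.68), and Serping1 most like Slc16a11 (0.90 and 0.95), Pdzk1ip1 (0.89 and 0.94) and Nbl1 (0.89 and 0.98). For the C1q chains, 2 genes recurred on each list, Csf1r, a receptor of microglia and macrophages (r = 0.91 with C1qa, 0.91 with C1qb and 0.89 with C1qc), and the Fc receptor gene Fcgr3 (0.89, 0.89 and 0.92). The remaining gene was Fcrls for C1qa (0.89) and C1qc (0.87) and Trem2 for C1qb (0.89), both of which are on the microglial marker list. C3ar1 was most like Tnnt2 (0.79 and 0.92), Anapc15-ps (0.77 and 0.90) and C5ar1, the C5a receptor gene (0.77 and 0.91). The members outside C1q were less alike, the closest pair being C2 and Serping1 (r = 0.55), and C3 and C4b had r = 0.34.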

How the data were processed

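Polyadenylated RNA of cortical astrocytes was made into cDNA with a low-input template-switching kit and sequenced on a NovaSeq, per the labels' protocols. The deposited values are TPM, computed by the authors, in a column for each library. Per the submitters' processing notes, the tools were STAR 2.7.1a, RSEM 1.2.28, Trim Galore 0.6.4 and DESeq2 1.36.0 on build mm10, with no role given; the gene annotation is not given in the sources used here. TPM keep no read counts, so depth is unknown and no counting interval is given. Each library sums to 1e+06 TPM, so a change in abundant genes moves all others.

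Values were analysed as log2(TPM + 1), which understates changes of low genes such as C3 and C3ar1. Genes that reached 1 TPM in 3 or more libraries were fitted with limma 3.58.1 (R 4.3.3, statmod 1.5.0; 1 mean per age, empirical Bayes with trend and robust settings), tested on simulated data. SDs are over libraries, SEs and 95% intervals from limma. Correlations used permutation tests coded in numpy 2.4.6, with ranks from scipy 1.17.1. No 2 libraries were identical (r 0.926 to 0.994). Named genes were the members, the 3 genes most like each, and up to 3 called genes of smallest p per direction in each list and main comparison; marker genes are named by level or where a result turned on them. Single values of some markers are not reported here. Alternatives were another pseudocount, other filters, rescaling, a replicate block, a microglial covariate, a term for the range of genes at 0 and leaving out each library. The members and lists were chosen with earlier results of these data known.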

Additional observations from a re-analysis of the deposited data

Results flagged for a closer look

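Of 40 member-by-age groups of 4 or 5 libraries, 2 held a library far from its group; chance flags about 1 in 20. C3 in 6m replicate 4 was 1.33 TPM, above the other 6m libraries by 0.72 of the group's range. C4b in P14 replicate 4 was 27.9 TPM, below the other P14 libraries by 0.89 of the range.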

How the results depend on the processing

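C3 was called in P60 vs P7 (1.07 to 3.31), 18m vs 3m (1.16 to 2.16) and 18m vs P7 (1.54 to 3.64) under each alternative that kept it. The 5 TPM filter left 6 members, and 0, 1 and 0 were called in the 3 comparisons. With the microglial covariate the counts were 4, 1 and 2, and with the range term 1 in 18m vs 3m; P60 vs P7 and the F test could not be fitted with that term, whose 18m vs 3m value rests on 12m replicate 3. Leaving out single libraries gave 1 to 1 in P60 vs P7, 2 to 5 in 18m vs 3m (5 without 18m replicate 2), 1 to 2 in 18m vs P7 (2 without 18m replicate 3) and 2 to 4 in the F test. Same-numbered libraries did not deviate together (mean r = 0.0023 over 119 pairs); with a replicate block the counts were 1, 2, 1 and 2, C4b in 18m vs 3m was lost (adjusted p = 0.0538), and Serping1 in 18m vs 3m turned to 0.063. Rescaling turned C4b in P60 vs P7 to 0.10 and in 18m vs P7 to 0.25, Serping1 in 18m vs 3m to 0.25 and in 18m vs P7 to 0.17, and C1qb in 18m vs P7 to 0.10. The covariate turned C4b (0.10), C1qa (-0.80), C1qb (-0.64), C1qc (-1.22) and C3ar1 (-0.041) in P60 vs P7, C1qa (0.21), C1qb (0.28) and C1qc (0.21) in 18m vs 3m, and C4b (0.010) and C1qa (-0.13) in 18m vs P7. The range term turned Serping1 (0.53), C5ar1 (0.15), Cr2 (0.30), Cd93 (0.13), Csmd1 (0.0080), Csmd2 (0.29) and Srpx2 (0.044) in 18m vs 3m. Without single libraries, uncalled values crossed 0 for C4b in P60 vs P7 (-0.31 to 0.11) and 18m vs P7 (-0.16 to 0.13), Serping1 in 18m vs 3m (-0.12 to 0.10) and 18m vs P7 (-0.28 to 0.089), and C1qa (-0.35 to 0.60), C1qb (-0.46 to 0.31) and C1qc (-0.80 to 0.057) in 18m vs P7. The cause was not tested.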
